A study of Saccharomyces cerevisiae with 6 samples.

Results

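Insertions of the Eds1 calling cards library were compared with the pooled insertions of the Ino4, Leu3, Sfp1 and Zap1 libraries, leaving out the library of its paralog Rgt1, to see where Eds1 stood above the other factors. Every line of the Eds1 file was taken as a member, which gave 30707 of the 203761 insertions in the 6 libraries. The pool held 143278 insertions and the Rgt1 library, shown only beside the comparison, 29776. Calling cards marks where a TF binds by fusing it to Sir4, a protein that draws the Ty5 retrotransposon into nearby DNA. All 6 libraries came from BY4741, a laboratory strain of budding yeast, lacking its own SIR4 (sir4D), so that the groups differed in the TF carried on the fusion plasmid (Eds1p, then Ino4p, Leu3p, Sfp1p, Zap1p or Rgt1p). A second plasmid supplied a barcoded Ty5 that carries HIS3 and is switched on by galactose through the GAL1/10 promoter. Each library started from 1 clone, was induced on galactose plates, passed over rich glucose medium (YPD) and then selected for histidine growth with 5'FOA present. DNA was cut in separate HinPI1, HpaII and Taq-alphaI digests, circularized and amplified by inverse PCR.

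Eds1 is a DNA-binding protein of the zinc cluster family and the paralog of Rgt1. Rgt1 represses the HXT genes, which encode hexose transporters, when glucose is low, together with the corepressors Mth1 and Std1. When the membrane sensors Snf3 and Rgt2 detect glucose, Mth1 and Std1 are degraded and the transporter genes are switched on. Much less is known of Eds1 itself.

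Insertions were counted in 1-kb windows and in upstream regions, each at most 800 bp before a gene's start and ended by the neighbouring gene. A feature was called when its share of the Eds1 library exceeded its share of the pool (Fisher's exact test, one-sided) at a Benjamini-Hochberg adjusted p under 0.05, over all features with at least 10 insertions in the 5 libraries. There was 1 library per TF, so each test compared these libraries and had no replicate check. Intervals are exact 95% intervals of the ratio of shares and cover counting error only, since PCR reads without molecular identifiers are not independent molecules and 1 position can be listed several times. The other libraries held 15951 to 75550 insertions, and the median reads per insertion were 3 in Eds1, 18 to 34 in the 4 pooled libraries and 4 in Rgt1. Upstream regions held 54.2% of Eds1 insertions and 52.8% to 57.4% of those of each other library. Among the strain's altered genes, insertions were few at LEU2, URA3 and HIS3. LEU2 had 0 in every library, URA3 had 2 Eds1 insertions against 1 in the pool, and HIS3 had 2 against 2. The upstream region of SIR4, which the strain lacks, held 12 Eds1 insertions against 44 in the pool (ratio 1.27, 0.612 to 2.45).

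Eds1 stood above the pool mainly at the HXT gene clusters of chromosomes IV and VIII and at MTH1. Of 4184 windows tested, 66 were called (1.58% of those tested), and they formed 55 places when touching windows were joined. Of 2317 upstream regions tested, 37 were called (1.6%). Chromosomes VI to XVI held 40 called windows of 2964 and 25 called regions of 1601, and chromosomes I to V held 26 of 1220 and 12 of 716. The called windows held 11.8% of Eds1 insertions, against 1.90% of Ino4, 1.47% of Leu3, 1.87% of Sfp1 and 1.71% of Zap1 insertions. Of the Eds1 library, 6.62% lay in the 12 called windows around the HXT genes of chromosomes IV and VIII, against 0.132% to 0.196% of each pooled library. The ratio of shares in the called windows had a median of 4.63 and ran from 1.72 to 115, with 15 windows under 3. The calls were made on the pool of these libraries, so the shares above and the next count are not independent evidence. In 65 of the 66 windows and all 37 regions the Eds1 share also exceeded the share in each of the 4 pooled libraries taken singly. The exception was the window at 229001 to 230000 of chromosome I, with 12.7 insertions per 10000 in Eds1 and 13.2 in Ino4. Over all windows tested the median ratio was 1.06, and 2257 of the 4184 had a higher share in Eds1. In 17 of the called windows Leu3 gave more of the pool's insertions than the other pooled libraries together. Without Leu3 in the pool 39 windows were called, 36 of them among the 66, and 26 regions, 25 of them among the 37.

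**Figure D1:**
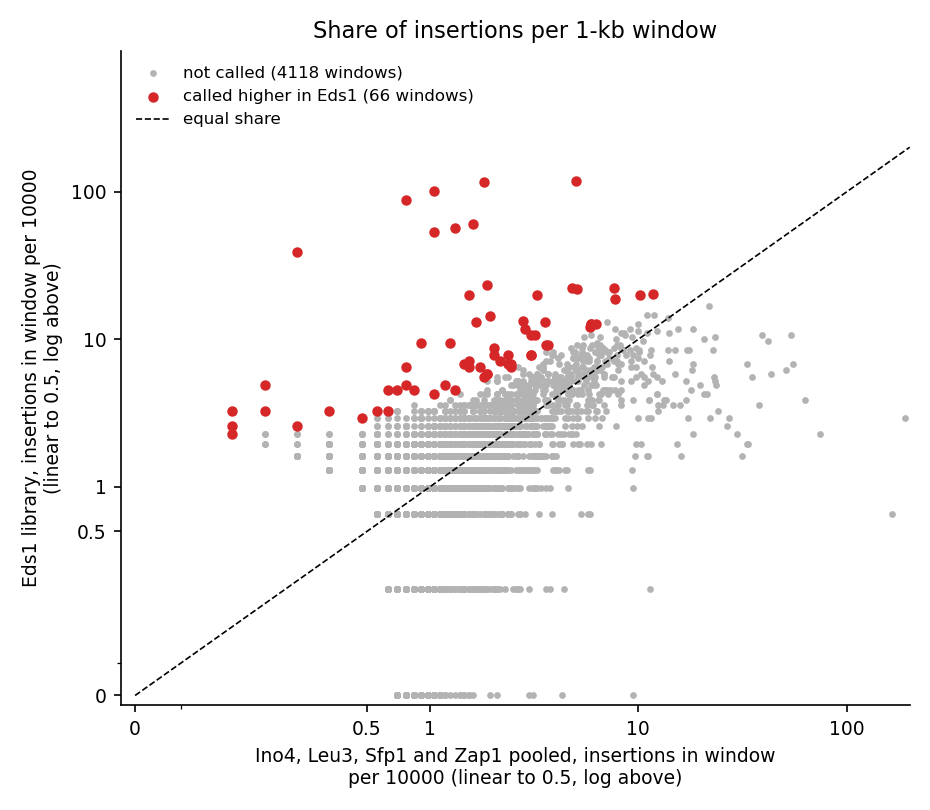
Share of Eds1 insertions (vertical axis) against the share of pooled Ino4, Leu3, Sfp1 and Zap1 insertions (horizontal axis), both per 10000, for the 4184 windows tested. The 66 called windows (red) lie above the dashed line of equal share, and those that stand farthest above it are at the HXT genes.

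The genes closest to the highest Eds1 shares encode hexose transporters. HXT3, a low-affinity glucose transporter, had 357 Eds1 insertions in its upstream region, against 0 in Ino4, 4 in Leu3, 1 in Sfp1 and 0 in Zap1. As shares these were 116 per 10000 in Eds1 and at most 0.529 in a pooled library, and an Ino4 or Zap1 count of 0 allows up to 1.88 or 1.87. Eds1 was thus above all 4 libraries, with a ratio of 333 (95% interval 141 to 1032, adjusted p = 9.75e-257 by the exact test). HXT7, a high-affinity transporter, had 284 Eds1 insertions, against 0 in Ino4, 2 in Leu3, 2 in Sfp1 and 3 in Zap1. The ratio was 189 (90.7 to 475, adjusted p = 3.93e-199 by the exact test), and the highest pooled share was 1.87 per 10000 in Zap1, against 92.5 in Eds1. HXT6, which lies next to HXT7 and is nearly identical to it in sequence, had 189 Eds1 insertions, against 0 in Ino4, 12 in Leu3, 5 in Sfp1 and 6 in Zap1. Its ratio was 38.3 (24.8 to 62.0, adjusted p = 8.90e-112 by the exact test). How reads common to HXT6 and HXT7 were placed was not stated in the labels or methods, so the split between these neighbours is uncertain.

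The same stretch of chromosome IV was higher in Eds1 well beyond the upstream regions. From 1161001 to 1167000, a run of 6 called windows that takes in HXT6, the open reading frame YDR344C and HXT3, there were 1005 Eds1 insertions against 138 in the pool, a ratio of 34.0 (28.4 to 40.9). The 2 called windows at HXT7, from 1156001 to 1158000, had 483 against 34, a ratio of 66.3 (46.8 to 96.8). The 360 Eds1 insertions of the window at 1162001 to 1163000 lay mostly in YDR344C, which held 298 of them. The ratio was 115 within 500 bp of the centre of the HXT3 window, 31.3 from 500 to 1500 bp and 16.5 from 1500 to 3500 bp. It was 20.4 (17.2 to 24.4) from 3500 to 10500 bp, a span that takes in the windows at HXT6 and HXT7. Between 10500 and 20500 bp it was 2.09 (1.56 to 2.79).

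HXT1, the main low-affinity transporter gene, had 68 Eds1 insertions in the 800 bp before its start, against 0 in Ino4, 0 in Leu3, 7 in Sfp1 and 1 in Zap1. The ratio was 39.7 (19.0 to 95.6, adjusted p = 1.34e-39 by the exact test). Most Eds1 insertions near HXT1 lay farther out. The window at 293001 to 294000 of chromosome VIII, whose Eds1 insertions had a median distance of 962 bp from the HXT1 start, held 356 Eds1 insertions against 26 in the pool (1 in Ino4, 9 in Leu3, 13 in Sfp1 and 3 in Zap1). Its ratio was 63.9 (42.9 to 99.2, adjusted p = 5.05e-228 by the exact test), the smallest p on chromosomes VI to XVI. The ratio was 3.05 (1.55 to 5.84) from 1500 to 3500 bp of its centre, 9.93 (7.73 to 12.9) from 3500 to 10500 bp, where HXT4 and HXT5 lie, and 0.996 (0.682 to 1.42) from 10500 to 20500 bp.

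HXT4, a transporter gene of the same cluster, was reached through its window and not through its upstream region, which is cut short by the annotated gene AHT1. The region held 7 Eds1 insertions against 0 in the pool and was under the minimum for a test. The window at 289001 to 290000 of chromosome VIII, with a median distance of 650 bp from the HXT4 start, had 164 Eds1 insertions against 2 in Ino4, 9 in Leu3, 4 in Sfp1 and 0 in Zap1. Of these Eds1 insertions 131 lay in AHT1, and the ratio was 51.0 (30.04 to 93.2, adjusted p = 1.77e-101 by the exact test).

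HXT5, a transporter of intermediate affinity at the edge of the cluster, had 17 Eds1 insertions, against 4 in Ino4, 4 in Leu3, 1 in Sfp1 and 2 in Zap1. The ratio was 7.21 (3.19 to 17.03, adjusted p = 6.19e-05 by the exact test). HXT2, a transporter gene on chromosome XIII, had 14 Eds1 insertions, against 4 in Ino4, 8 in Leu3, 2 in Sfp1 and 0 in Zap1. Its ratio was 4.67 (2.06 to 10.6, adjusted p = 0.00865 by the exact test), and the call was lost when insertions within 5 bp were counted once (ratio 3.20) and when libraries were thinned to equal size (4.0).

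Of the 20 genes of the hexose transport list, 19 had an upstream region and 12 could be tested. Of those, 6 were called (50%, against 1.6% of all regions tested), and the median ratio over the 12 was 2.96, against 1.04 over all regions. The gene lists were chosen with earlier results of these data known. The 6 that were not called included GAL2, the galactose permease gene, with 10 Eds1 insertions against 78 (ratio 0.598, 0.276 to 1.16) in these cells grown on galactose. They also included the glucose sensor genes SNF3 (2 against 11) and RGT2 (24 against 89, ratio 1.26, 0.766 to 1.99). HXT8 had 1 against 17, HXT13 0 against 13 and HXT17 1 against 16. The remaining regions, of HXT9, HXT10, HXT11, HXT14, HXT15 and HXT16, had 0 to 2 Eds1 insertions, too few for a test.

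**Figure D2:**
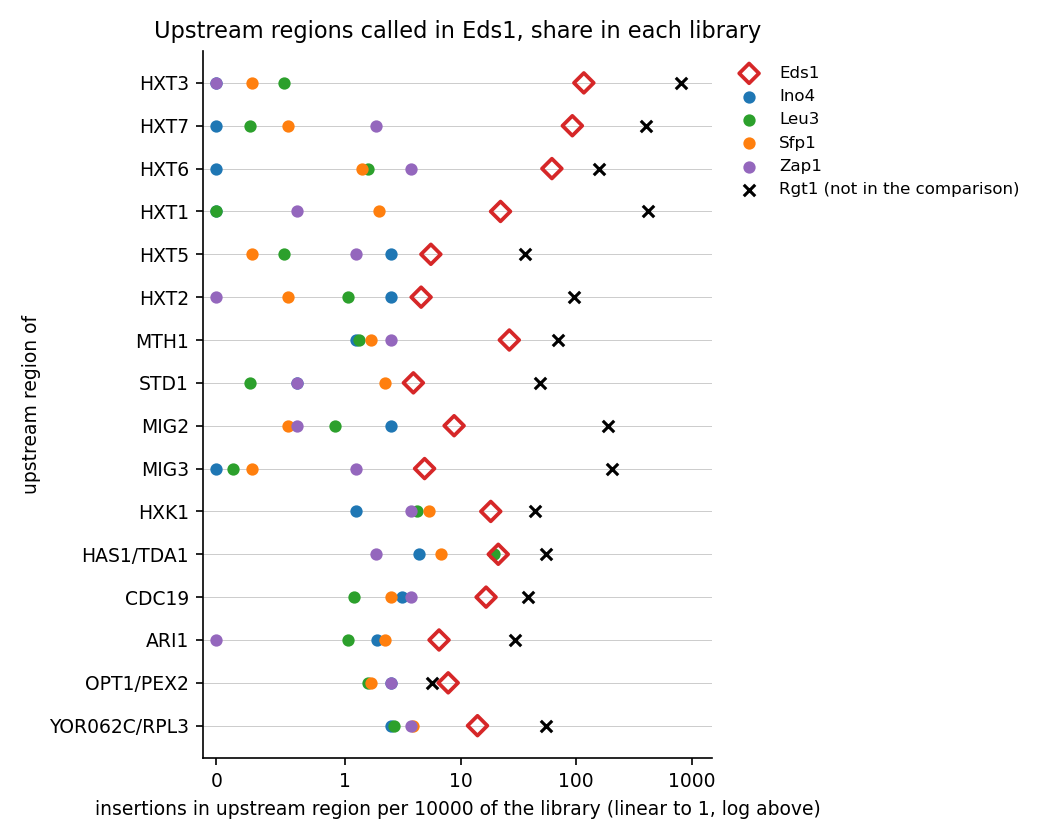
Insertions per 10000 of each library (horizontal axis) in the called upstream regions that hold a gene of the lists, 1 row per region. Eds1 (open diamonds) stands right of Ino4, Leu3, Sfp1 and Zap1 (filled circles) in every row, narrowly at HAS1/TDA1, and Rgt1 (crosses), which took no part in the comparison, stands farther right in these rows except at OPT1/PEX2.

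At 6 of these genes, MTH1 among them, Eds1 insertions gathered before the start and seldom inside the gene. Binned by 200 bp, the richest bin was 400 to 600 bp before the start for HXT3 (124 insertions) and MTH1 (48), 600 to 800 bp for HXT4 (74), and 800 to 1000 bp for HXT1 (175) and HXT6 (170). HXT7 had its richest bin at 1400 to 1600 bp (118 insertions) besides a broad group from 200 to 800 bp. The first 600 bp of the same genes held 10 Eds1 insertions at HXT3, 2 at HXT1, 1 at HXT4 and 0 at HXT6, HXT7 and MTH1. These distances carry the uncertainty of the gene starts, which were within 25 bp of the insertions' own pattern on each whole chromosome other than XI. Over shorter stretches they were less exact: in the stretch of chromosome VIII from 200001 to 300000, which holds HXT1, HXT4 and HXT5, the measured shift was 125 bp.

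**Figure D3:**
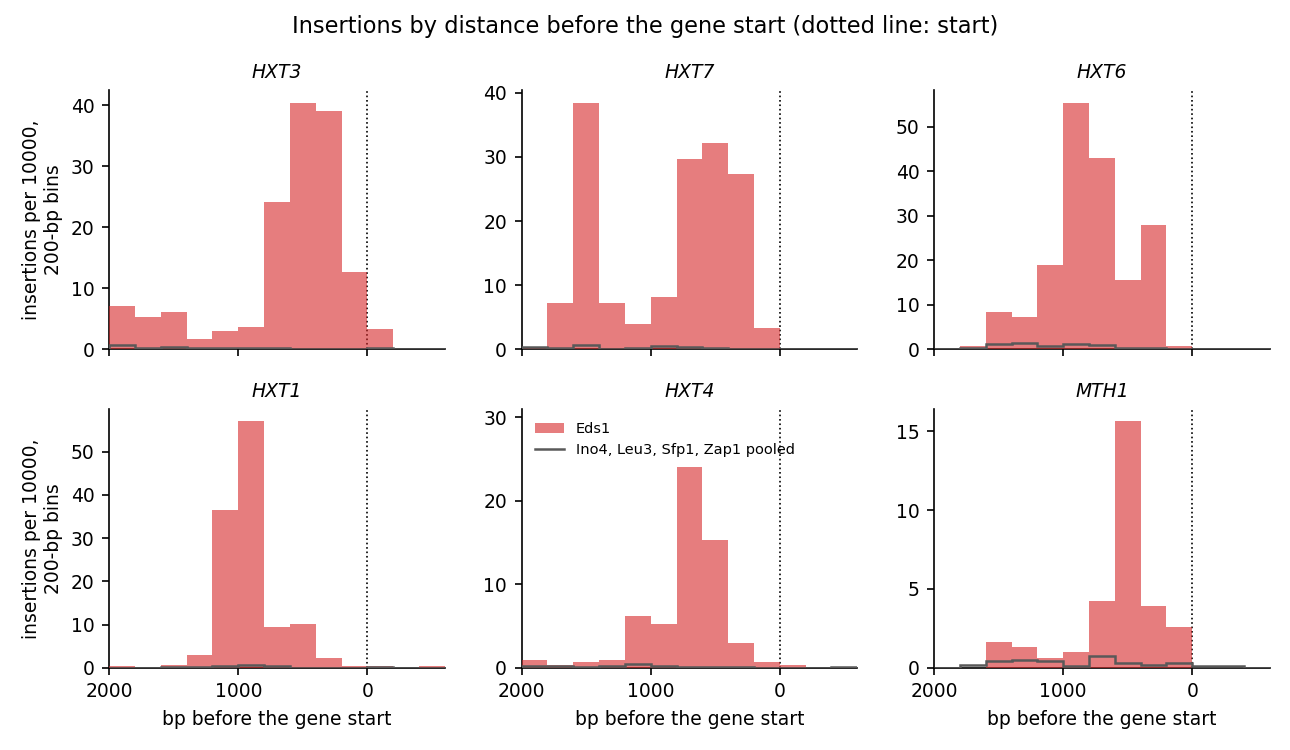
Insertions per 10000 of the library in 200-bp bins by distance before the gene start, for Eds1 (filled) and the pool of Ino4, Leu3, Sfp1 and Zap1 (line). Eds1 insertions lie before the start in all 6 panels, 400 to 600 bp away at HXT3 and MTH1 and 800 to 1000 bp away at HXT1, while the pool stays near 0.

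Beyond the transporters, genes of the glucose signalling pathway were also higher in Eds1. MTH1, the corepressor that works with Rgt1, had 81 Eds1 insertions, against 2 in Ino4, 10 in Leu3, 6 in Sfp1 and 4 in Zap1. The Eds1 share was 26.4 per 10000 and the highest pooled share 2.50, in Zap1, and the ratio was 17.2 (10.6 to 28.9, adjusted p = 9.32e-39 by the exact test). The excess at MTH1 was narrow: within 500 to 1500 bp of the window's centre the ratio was 4.86 (2.66 to 8.89), and from 1500 to 3500 bp it was 1.12 (0.725 to 1.68). STD1, the paralog of MTH1, had 12 Eds1 insertions against 12 in the pool, 8 of these in Sfp1 (ratio 4.67, 1.92 to 11.4, adjusted p = 0.0222 by the exact test). That call did not hold without Leu3 in the pool (ratio 2.65, exact adjusted p = 0.46), and over its alternatives its adjusted p reached 1.

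The MIG genes encode zinc finger repressors of genes that are shut off in glucose. MIG2 had 27 Eds1 insertions, against 4 in Ino4, 7 in Leu3, 2 in Sfp1 and 1 in Zap1, a ratio of 9.0 (4.56 to 18.6, adjusted p = 2.49e-09 by the exact test). MIG3 had 15 Eds1 insertions, against 0 in Ino4, 1 in Leu3, 1 in Sfp1 and 2 in Zap1, a ratio of 17.5 (5.57 to 72.4, adjusted p = 1.56e-06 by the exact test). MIG1 itself had 5 against 1 and was not tested. The neighbouring open reading frame YGL034C had 43 Eds1 insertions against 61 in the pool, 44 of them in Leu3, a ratio of 3.29 (2.17 to 4.94, adjusted p = 2.11e-06 by the exact test). The window that takes in both, 433001 to 434000 of chromosome VII, had 68 against 109, 82 of these in Leu3. Its ratio was 2.91 (2.12 to 3.98, adjusted p = 1.21e-08 by the exact test). The Eds1 insertions of that window had a median distance of 554 bp from the MIG1 start, and 23 of them lay in YGL034C.

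HXK1, which encodes a hexokinase, had 56 Eds1 insertions, against 2 in Ino4, 32 in Leu3, 19 in Sfp1 and 6 in Zap1. The ratio was 4.43 (3.02 to 6.50, adjusted p = 6.62e-12 by the exact test), and it fell to 2.18 with insertions within 5 bp counted once, where the call of the region was lost. The window at 255001 to 256000 of chromosome VI, before HXK1, had 68 against 69 (ratio 4.60, 3.24 to 6.52) and kept its call in all 19 of its alternatives. The next window, 256001 to 257000, had 41 against 40 (ratio 4.78, 3.02 to 7.59), and its call was lost in the second run of lines alone. HXK2, the gene of the other hexokinase, had 7 against 37 (ratio 0.883, 0.332 to 2.01). TDA1, a kinase gene that shares its upstream region with HAS1, had 65 Eds1 insertions against 180 in the pool, 146 of them in Leu3. The shares were 21.2 per 10000 in Eds1 and 19.3 in Leu3, and the ratio was 1.68 (1.25 to 2.25, adjusted p = 0.0242 by the exact test). This call was lost in 10 of its 19 alternatives, among them each removal of Ino4, Sfp1 or Zap1 from the pool (ratios 1.56, 1.46 and 1.52).

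Of the 24 genes of the glucose signalling list, 15 had regions that could be tested, and 6 were called: MTH1, STD1, MIG2, MIG3, HXK1 and HAS1/TDA1. That is 40%, against 1.6% of all regions tested. The median ratio over the 15 was 1.68, against 1.04 over all regions. Among the 9 that were not called were CYC8, which encodes part of the general corepressor (12 Eds1 insertions against 94, ratio 0.596, 0.297 to 1.09), the casein kinase genes YCK1 (4 against 10) and YCK2 (3 against 12), and SNF1, the kinase of glucose derepression (8 against 19, ratio 1.96, 0.744 to 4.70). EDS1 had 1 against 4 in its own region. YKR075C and RGT1 lie on the stretch of chromosome XI that was left out of the upstream regions. Windows were still tested there, and the one at 580001 to 581000, near YKR075C, was called. It had 58 Eds1 insertions against 111 in the pool, 92 of them in Leu3 (ratio 2.44, 1.74 to 3.38). With the offset measured there, an alternative added after the data were seen, YKR075C/ECM4 had 68 Eds1 insertions against 159, 128 of them in Leu3 (ratio 2.00, 1.48 to 2.67, adjusted p = 0.000413 by the exact test). RGT1 had 6 against 11 in the same alternative, with an adjusted p of 0.629 by the exact test.

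Other lists held single called members. In glycolysis, 1 of 17 regions tested was called, with a median ratio of 1.08 over the list: CDC19, the pyruvate kinase gene, had 51 Eds1 insertions, against 5 in Ino4, 9 in Leu3, 9 in Sfp1 and 6 in Zap1. Its ratio was 8.21 (5.10 to 13.4, adjusted p = 3.06e-17 by the exact test), and its Eds1 insertions lay far out, at a median of 731 bp. With insertions within 5 bp counted once that ratio was 1.28 and the call was lost. In the galactose regulon 1 of 9 regions was called, MTH1, which is also in the glucose signalling list, with a median of 1.10. The list had 11 genes, and GAL1 and GAL10 had no upstream region, so they were not measured. In amino acid and peptide transport 1 of 18 was called, with a median of 1.19: OPT1, a glutathione and oligopeptide transporter gene that shares its region with PEX2, had 24 Eds1 insertions, against 4 in Ino4, 12 in Leu3, 6 in Sfp1 and 4 in Zap1 (ratio 4.31, 2.37 to 7.80, adjusted p = 0.000107 by the exact test). Among ribosomal protein genes 1 of 110 was called, YOR062C/RPL3, with a median of 0.848. Each of these shares of called members can be read against the 1.6% over all regions. Of the genes that the study lists as Eds1 targets, 5 had testable regions and all 5 were called (ARI1, HXT2, MIG3, OPT1/PEX2 and HAS1/TDA1, median ratio 4.67). That list was drawn partly from this library, so the count is not independent evidence.

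**Figure D4:**
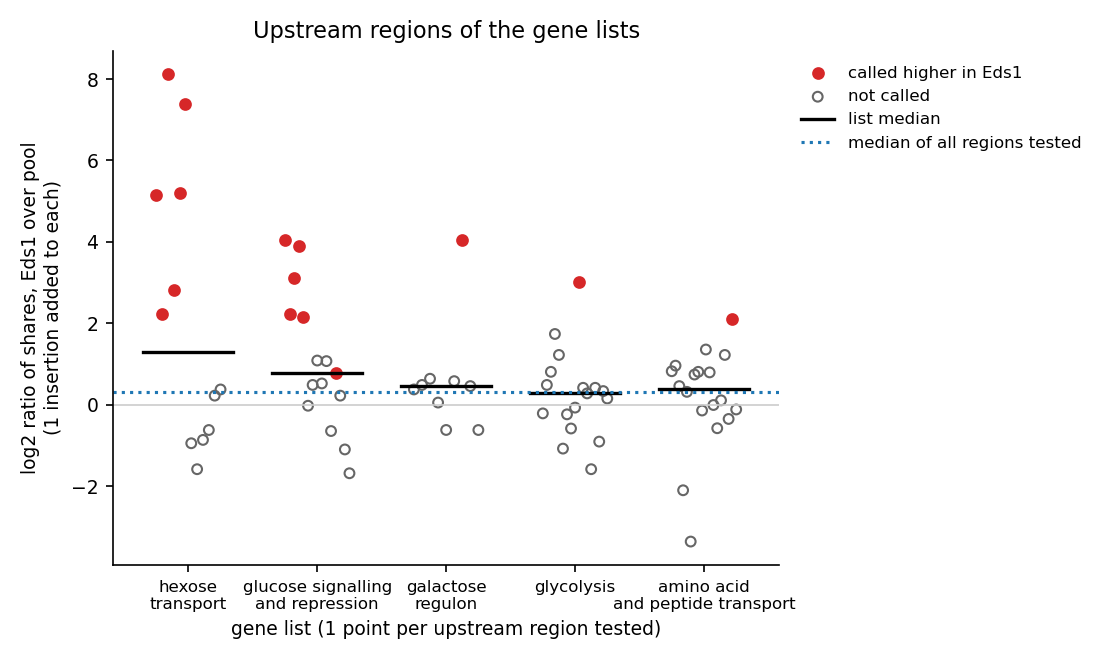
Log2 ratio of Eds1 over pooled shares (vertical axis, 1 insertion added to each) for each tested upstream region of 5 gene lists, with called regions filled and list medians as bars. The hexose transport list has its median at 1.30 and members up to 8.12, against a median of 0.32 for all regions tested (dotted line). Without the added insertion the median ratio over all regions is 1.04.

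Chromosomes VI to XVI held further places outside the hexose transport and glucose signalling lists. The window at 368001 to 369000 of chromosome XII, between YLR108C and AHP1, a thioredoxin peroxidase gene, had 67 Eds1 insertions, against 17 in Ino4, 22 in Leu3, 13 in Sfp1 and 21 in Zap1. The ratio was 4.28 (3.03 to 6.05, adjusted p = 7.87e-14 by the exact test), and Zap1 and Ino4 had the next highest shares, 13.1 and 10.7 per 10000, against 21.8 in Eds1. The window at 443001 to 444000 of chromosome XV, between YOR062C and RPL3, had 40 Eds1 insertions against 24 (ratio 7.78, 4.57 to 13.5, adjusted p = 5.50e-13 by the exact test). The window at 502001 to 503000 of chromosome XVI, between RMI1 and SKS1, a kinase gene tied to growth on low glucose, had 61 against 47 (ratio 6.06, 4.07 to 9.06, adjusted p = 5.40e-17 by the exact test). Over the whole SKS1/RMI1 region the ratio was 2.85 (2.13 to 3.79), and Leu3 alone had 91 of the pool's 131 insertions there.

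The windows and regions given next had 14 to 36 Eds1 insertions. On chromosome XII, 586001 to 587000 between IFH1, a coactivator of ribosomal protein genes, and UCC1 had 20 against 11 (ratio 8.48, 3.88 to 19.6). On chromosome XV, 426001 to 427000 before ETT1 had 36 against 41 (ratio 4.10, 2.54 to 6.57), with 0 in Ino4 and 21 in Sfp1. The polyamine transporter gene TPO2 lay nearest to 766001 to 767000 of chromosome VII, which had 33 against 44 (ratio 3.50, 2.16 to 5.62). ARI1, an aldehyde reductase gene, had 20 Eds1 insertions against 19 in its region (ratio 4.91, 2.49 to 9.73). BOP3 had 14 against 13 (ratio 5.02, 2.19 to 11.6). The window at 37001 to 38000 of chromosome XIII before ATR1, a multidrug efflux pump gene, had 14 against 10 (ratio 6.53, 2.70 to 16.4), and the one at 6001 to 7000 of chromosome XI, in MCH2, a monocarboxylate transporter homolog, had 14 against 9 (ratio 7.26, 2.93 to 19.0). QDR3 on chromosome II, also a multidrug transporter gene, had 20 against 16 in its region (ratio 5.83, 2.87 to 12.04). RIE1 had 28 against 55 (ratio 2.38, 1.45 to 3.81). Besides the calls already given as lost, counting insertions within 5 bp once ended those at the regions of HXT5, STD1, ARI1, OPT1/PEX2, YGL034C, QDR3, RIE1, HAS1/TDA1, YLR108C/AHP1, IFH1/UCC1 and ETT1, with ratios from 1.95 at HAS1/TDA1 to 4.54 at HXT5. The windows at YLR108C/AHP1 (1.96), TPO2 (1.81) and ETT1 (2.12) were lost with them. Without Leu3 in the pool the regions of IFH1/UCC1 (ratio 2.72), BOP3 (3.43) and RIE1 (2.06) were no longer called. Nor were the MCH2 window (4.41) and the window at 292001 to 293000 of chromosome VIII in the HXT cluster (7.35). The whole IFH1/UCC1 region had 21 Eds1 insertions against 20 in the pool (ratio 4.90). The narrower window there, 586001 to 587000, kept its call in all 19 of its alternatives. With libraries thinned to equal size MIG3 (9.33), OPT1/PEX2 (4.0), QDR3 (2.91), BOP3 (2.22), RIE1 (1.79) and the MCH2 window (4.57) were not called.

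The Rgt1 library had a larger share than Eds1 at many of these places and a smaller one at others. Among the 66 called windows the Rgt1 share was above the Eds1 share in 38 and below it in 28, and among the 37 called regions it was above in 27 and below in 10. The Rgt1 share was at or below that of the pool in 15 of the windows. At HXT3 there were 357 Eds1 insertions beside 2398 of Rgt1, at HXT1 68 beside 1242, at MIG3 15 beside 609, and at MTH1 81 beside 207. Places with more of Eds1 were OPT1/PEX2 (24 beside 17), QDR3 (20 beside 11), RIE1 (28 beside 5), the ATR1 window (14 beside 0) and the MCH2 window (14 beside 1). The totals of both libraries are close, so these counts can be read side by side, and they were not tested.

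Eds1 and Rgt1 insertions also fell on the same bases. In the 12 HXT windows of chromosomes IV and VIII, 90.6% of Eds1 insertions were at a position that the Rgt1 file also lists, but so were 79.8% of the 228 pool insertions there, and Rgt1 positions covered 41.5% of the bases. At the HXT1 window of 293001 to 294000 the values were 99.2% for Eds1 and 96.2% for the pool, with 83.4% of bases covered. In the other 54 called windows they were 34.8% for Eds1 and 22.5% for the pool, and in windows that were not called 3.16% and 2.47%. At MTH1, in the window of 1016001 to 1017000, 63.9% of Eds1 insertions were at such positions, against 22.2% of the pool's 27. When insertions of both sides at Rgt1 positions were set aside, an alternative added after the data were seen, 55 windows were called, 46 of them among the 66. The ratio was then 131 at the HXT7 window of 1156001 to 1157000, 35.4 at the HXT6 region, 9.22 at MTH1 and 22.8 at MIG2. All were still called by the exact test. At that HXT7 window 283 of 309 Eds1 and 14 of 15 pool insertions were set aside, so 131 rested on very few pool insertions. At MIG2 18 of 27 Eds1 insertions were set aside. The HXT1, HXT3 and MIG3 regions had fewer than 10 insertions left. So had the windows at HXT1, HXT3 (1165001 to 1166000), HXT4 (289001 to 290000) and MIG2 (94001 to 95000). The regions of HXT2 (ratio 1.90), STD1 (2.53), ARI1 (2.36), HAS1/TDA1 (1.19), SKS1/RMI1 (1.86) and YOR062C/RPL3 (2.76) were no longer called. Nor were the TPO2 window (2.20) and the window at 580001 to 581000 of chromosome XI (1.32). The ARI1 window, starting at 208001 of chromosome VII, was lost as well (2.53). At SKS1/RMI1 the window starting at 502001 of chromosome XVI kept its call (ratio 3.79, adjusted p = 0.0217 by the exact test). At YOR062C/RPL3 the window starting at 443001 of chromosome XV also kept its call (ratio 5.39, adjusted p = 0.00176 by the exact test). What part shared positions have in the other values was not tested.

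The Eds1 file runs through the chromosomes in 2 runs of lines, of 23581 and 7126 insertions, and what the runs stand for was not stated in the labels or methods. They were used as a check within the library and not as replicates. Both were set against the same pool. The test called 59 windows in the first run (1.47% of those tested) and 39 in the second (1.1%), 27 of them in both, and 36 regions in the first (1.61%) and 25 in the second (1.24%), 17 of them in both. Those 17 were HXT1, HXT3, HXT6, HXT7, YDR344C, MTH1, MIG2, MIG3, YGL034C, HXK1, CDC19, QDR3, YLR108C/AHP1, IFH1/UCC1, ETT1, YOR062C/RPL3 and SKS1/RMI1. The others, among them HXT2, HXT5, STD1, ARI1, OPT1/PEX2, BOP3, RIE1 and HAS1/TDA1, were each not called in at least 1 of the runs.

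The second run was the richer in HXT insertions. The called windows held 20.3% of its insertions, against 9.19% in the first run. At the HXT1 window of 293001 to 294000 there were 207 insertions in the second run and 149 in the first, so its share was 4.60 times as high (3.71 to 5.71, adjusted p = 3.97e-43 by Fisher's exact test, two-sided). Of 606 windows that could be compared between the runs 11 differed (1.82%), all higher in the second run and 10 of them called windows, 9 of those at the HXT genes. Positions in common with the Rgt1 file made up 17.04% of the second run and 7.58% of the first, while those in common with each pooled library made up 1.49% to 6.39% and 2.39% to 9.42%. In the HXT windows the share of insertions at Rgt1 positions was 90.9% in the second run and 90.4% in the first. At HXT3 the first run alone gave a ratio of 198 and the second 780, and at MTH1 the first gave 14.9.

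**Figure D5:**
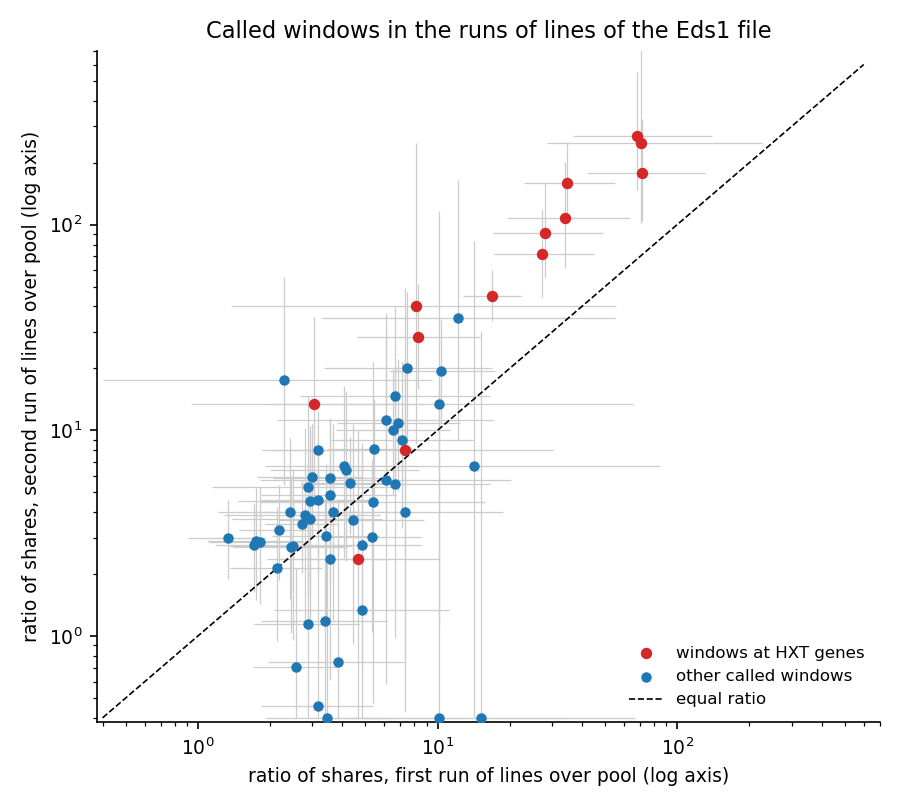
Ratio of shares over the pool in the second run of lines (vertical axis) against the first (horizontal axis) for the 66 called windows, with exact 95% intervals, on log axes. Of the 13 windows nearest HXT genes (red) 12 lie above the line of equal ratio, as do 33 of the 53 others, and 3 windows with 0 insertions in the second run are drawn at 0.4.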

How the data were processed

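Calling cards insertions of 6 TF libraries were analysed as deposited. The authors mapped the sequence next to each Ty5 insertion, and the submitters' processing notes name Novoalign. The version, the genome release and the filters are not given in the sources used here. Each deposited line holds a chromosome, a position and a count of reads, with no normalization, and 1 line was taken as 1 insertion. Depth was 15951 to 75550 insertions per library. Gene names and extents came from a RefSeq R64 table of 6431 genes, used without its coordinates in the text. Strand was read from the systematic names. Because the files may use another release, the shift between table and files was measured from the insertions, which avoid genes: it was -25 to 20 bp on 16 chromosome parts and 375 bp on chromosome XI past 200 kb, whose genes were left out of the upstream regions. Regions of at least 100 bp were kept, 4276 in all, and overlapping regions of divergent genes were joined ("A/B"). Other positions are those of the files.

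Shares were compared by Fisher's exact test with Benjamini-Hochberg adjustment over all features with at least 10 insertions. Intervals are Clopper-Pearson intervals of the conditional binomial, and 1 was added to both counts before taking log2 ratios. Samples were grouped by the TF in their labels. The windows named were the called windows with the smallest adjusted p, 20 on chromosomes VI to XVI and 8 on I to V, and the genes named were members of the lists. Members, lists and tests were chosen with earlier results of these data known. Names outside these, such as RIE1, QDR3 and YDR344C, are called regions or window neighbours named after their values were seen. Alternatives changed the pool, the test, the minimum, the counting of near or repeated positions, the window, the region length and the runs of lines. Python 3.11.15, numpy 2.4.6, pandas 2.3.3, scipy 1.17.1 and matplotlib 3.10.9 were used, and the test was tried on simulated data first. Not every called place is reported here.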

Additional observations from a re-analysis of the deposited data

Results flagged for a closer look

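The Rgt1 library took no part in the comparison, yet 60.6% of its insertions lay in the 66 windows called for Eds1, against 1.47% to 1.90% of the insertions of each pooled library. It stands out because it is a signal in data that the comparison did not use, above the level in the libraries used as background. That background level is not neutral, since the windows were called where the pool's share was low beside that of Eds1. The 12 HXT windows of chromosomes IV and VIII alone held 41.6% of Rgt1 insertions.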

How the results depend on the processing

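The counts of calls moved with the pool and with the counting. Of 66 windows and 37 regions, 41 and 21 were called with Rgt1 added to the pool, 25 and 11 with insertions within 5 bp counted once, and 29 and 20 with libraries thinned to equal size. Without Leu3 in the pool 39 windows were called, in the second run of lines alone 39, and in both runs 27 windows and 17 regions. The Poisson test called 58 regions, and 99 windows, which is 1.5 times the count by Fisher's test. Adjusted over chromosomes VI to XVI alone, 38 windows and 24 regions were called there, against 40 and 25. The other alternatives, among them removal of Ino4, Sfp1 or Zap1, equal weights and other window sizes and region lengths, gave 44 to 80 windows and 25 to 48 regions.

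With Rgt1 in the pool the ratio fell below 1 at windows on chromosome IV starting at 1164001 (0.728), 1165001 (0.751) and 1166001 (0.593), on VII at 94001 (0.209), 95001 (0.248) and 766001 (0.853), on VIII at 289001 (0.558), 292001 (0.328) and 293001 (0.678), on XI at 580001 (0.315) and on XVI at 502001 (0.656). It did so at the regions of YDR344C (0.636), HXT3 (0.837), MIG3 (0.138), MIG2 (0.265), HXT1 (0.307), HXT5 (0.812), HXT2 (0.263), STD1 (0.431) and SKS1/RMI1 (0.545). The Rgt1 insertions themselves, 60.6% of which lie in the called windows, raise the pool's share there. The ratio at SUN4 was 0.914 with insertions within 5 bp counted once, and at DSE4 it was 0 in the second run of lines. The cause of these 2 was not tested. The ratios of the other 43 named windows and regions stayed above 1 in every alternative where enough insertions were left for a test. The regions of GCV1 and YNL234W had 0 Eds1 insertions in the second run of lines and were under the minimum there.

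No paired analysis was possible because each TF had 1 library and the labels give no replicate numbers. With 1 library per TF, differences between clones cannot be told apart from differences between TFs. Low counts limit many calls, as 20 of the called windows had under 20 Eds1 insertions.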

Other observations

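Further called places are named here after their values were seen. The window at 122001 to 123000 of chromosome III, beside CIT2, which encodes peroxisomal citrate synthase, had 40 Eds1 insertions against 51 in the pool, 37 of them in Leu3 (ratio 3.66, 2.36 to 5.65, adjusted p = 1.06e-06 by Fisher's exact test). The window at 474001 to 475000 of chromosome II, beside the lysine synthesis gene LYS2, had 22 against 31 (ratio 3.31, 1.83 to 5.91). On chromosome XVI, 641001 to 642000, with the glutamine synthetase gene GLN1 nearest, had 39 against 90 (ratio 2.02, 1.35 to 2.98).

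Some windows sat close to the threshold of the call. The window at 115001 to 116000 of chromosome VII, inside it, had 20 Eds1 insertions against 35 in the pool and an adjusted p of 0.0476 by Fisher's exact test. The window at 438001 to 439000 of chromosome X, outside it, had 11 against 12 and an adjusted p of 0.0535 by the same test. By chromosome, the share of windows called was highest on I (7.02%, 4 of 57) and VI (5.13%, 4 of 78). These counts are small, and on each chromosome 2 of the 4 were touching windows of 1 place (70001 to 72000 of I and 255001 to 257000 of VI). The 4 on I include the window at 229001 to 230000, where the Ino4 share was above that of Eds1.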
